A study of Mus musculus with 16 samples.

Results

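Hippocampal RNA of Tspo knockout and wild-type mice was compared after injection of PBS, the vehicle, that is, without an inflammatory stimulus. The comparison uses 8 of the 16 libraries of the series, chosen by their labels alone: 4 labelled TSPOKO and 4 labelled WT, all from the hippocampus of 3-month-old mice injected with PBS, and all genes of the count table. The other 8 libraries, 4 of each genotype, come from mice injected with LPS, lipopolysaccharide, which comes from the outer membrane of bacteria and provokes inflammation. They shared the model's estimate of spread and gave the same genotype comparison in other samples. The labels name neither the design of the deletion nor the strain, littermate status or sex of the mice, and no source says whether replicates are separate animals, so every p-value measures the spread between these libraries.

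TSPO, the translocator protein, is a cholesterol-binding protein of the outer mitochondrial membrane. It has long been linked to the import of cholesterol for steroid synthesis, and the peptide made from Dbi, the diazepam-binding inhibitor, is its endogenous ligand. In the resting brain it is made in small amounts, mainly by microglia, astrocytes, endothelium and ependyma, and ligands that bind it are used to image activated glia.

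Total counts ran from 30198619 to 42375785 in the 8 PBS libraries, and a level below is in CPM, a gene's counts relative to the TMM-scaled library total, which is not adjusted for gene length. The hippocampal neuron genes Prox1, Neurod6, Wfs1, Fibcd1 and C1ql2 were present in all 8. Several libraries stood apart. Ttr, the transthyretin gene of the choroid plexus, stood at 1.42 CPM in wild-type PBS replicate 1 and at 657 to 3119 CPM in the other 7. Cbln3 and Pcp2, genes of cerebellar neurons, stood at 302 and 65.3 CPM in knockout PBS replicate 2 and at no more than 1.36 and 0.348 CPM elsewhere. Tcf7l2, a thalamic marker, stood at 70.5 and 75.6 CPM in wild-type PBS replicates 2 and 3 and at 5.91 to 28.1 CPM in the other PBS libraries. Lef1, also a thalamic marker, stood at 23.5 and 26.3 CPM in the same 2 and at 4.6 to 10.5 CPM in the others. Wild-type replicates 2 and 3 were the most alike pair (chi-square of 3.78 per gene, beyond sampling noise, against 12.3 to 53 for the other pairs), and were kept as 2 samples, although this does not show that they come from 2 animals. Among the LPS libraries, the one labelled wild-type LPS replicate 1 lacked what the other 3 of its group share. Its interferon-stimulated score, the mean log2 level of that list relative to wild-type PBS, was -0.15 against 1.905 to 2.08 in those 3 and -0.24 to -0.11 in the knockout LPS libraries, and its Tspo level was 2.63 CPM against 9.4 to 11.9 CPM in those 3. LPS results are therefore also given without it, a choice made after seeing the data. Y-linked genes read as male in wild-type replicate 4 and knockout replicates 2 and 3. Each title ends in a code that the labels do not explain; replicates 1 to 3 of the wild-type PBS group have one in common, but no code occurs in both genotypes under PBS, so a difference between codes cannot be told apart from one between genotypes.

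Tspo was low in both genotypes and the groups overlapped. Wild-type PBS replicates 1 to 4 stood at 2.52, 2.59, 2.06 and 5.17 CPM, and the libraries labelled knockout PBS replicates 1 to 4 at 2.33, 0.152, 0.28 and 0.47 CPM. The library labelled knockout PBS replicate 1, with 98 Tspo counts, therefore goes against its label, while the other 3 held 5, 10 and 14. The fitted log2 fold change, knockout minus wild type, was -1.89 ± 0.65 (SE), with an adjusted p of 0.918 in edgeR's quasi-likelihood test and an exact two-sided permutation p of 0.0571 (the smallest that 4 against 4 libraries allow is 0.0286). Without that library it was -3.37, with an adjusted p of 0.0881. Every direction given below for the knockout includes the library labelled knockout PBS replicate 1, except where it is left out by name.

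Around Tspo (chromosome 15, 83563592 to 83574203, plus strand, GRCm38, GENCODE M21), 13 of the 14 protein-coding genes within 500 kb were tested. None passed by edgeR, DESeq2 or limma-voom, and none had groups that did not overlap. Mcat, a mitochondrial fatty acid synthesis enzyme whose 5′ end overlaps that of Tspo on the other strand, stood at 11.4 to 14.4 CPM in wild type and 12.9 to 14 CPM in knockout. Only Ttll1, a tubulin polyglutamylase subunit, had an unadjusted p below 0.05 (log2 fold change -0.23 ± 0.09, edgeR adjusted p = 0.918).

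Across all genes, 6 of 16269 passed at an adjusted p below 0.05 (0.0369%): Snx29 was lower in the knockout, and Gm20075, Tmem181c-ps, Tmem181b-ps, Dynlt1b and Olfr648 were higher. At an unadjusted p below 0.05 there were 841 genes (5.17%), 379 higher and 462 lower. In 534 genes (3.28%) every knockout library lay on one side of every wild-type library. Without a genotype difference, groups of this size lie fully apart in either direction with a chance of 0.0286 by exact permutation. The shares of 5.17% and 3.28% thus lie near the 0.05 and 0.0286 expected without a genotype difference. Separate groups alone are therefore weak evidence for a gene that did not pass. Gm20075, Dynlt1b, Tmem181c-ps and Tmem181b-ps share most of their transcript sequence with other genes, at 59.9% to 90.4% of 31-base stretches. Olfr648 shares 19.5% and Snx29 none. Sharing is not peculiar to genes that passed. Among named genes that did not, U2af1l4 shares 49.6%, Mid1 31.1%, B3gat2 30.7% and Abcb1a 28.2%, while others, such as Ddah2 and Lcat, share none. Tspo shares 2.25%, all with Mcat, which overlaps it on the other strand. How common it is among all genes was not tested. The count moved with single libraries: 5 genes passed without the library labelled knockout PBS replicate 1, 3 without wild-type PBS replicate 1, and 1 (Snx29) without wild-type replicate 2 or 3 or with these 2 summed. With 3 libraries that stand apart set aside together (that one, wild-type replicate 1 and knockout replicate 2, chosen after seeing the data), only Gm20075 did.

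**Figure D1:**
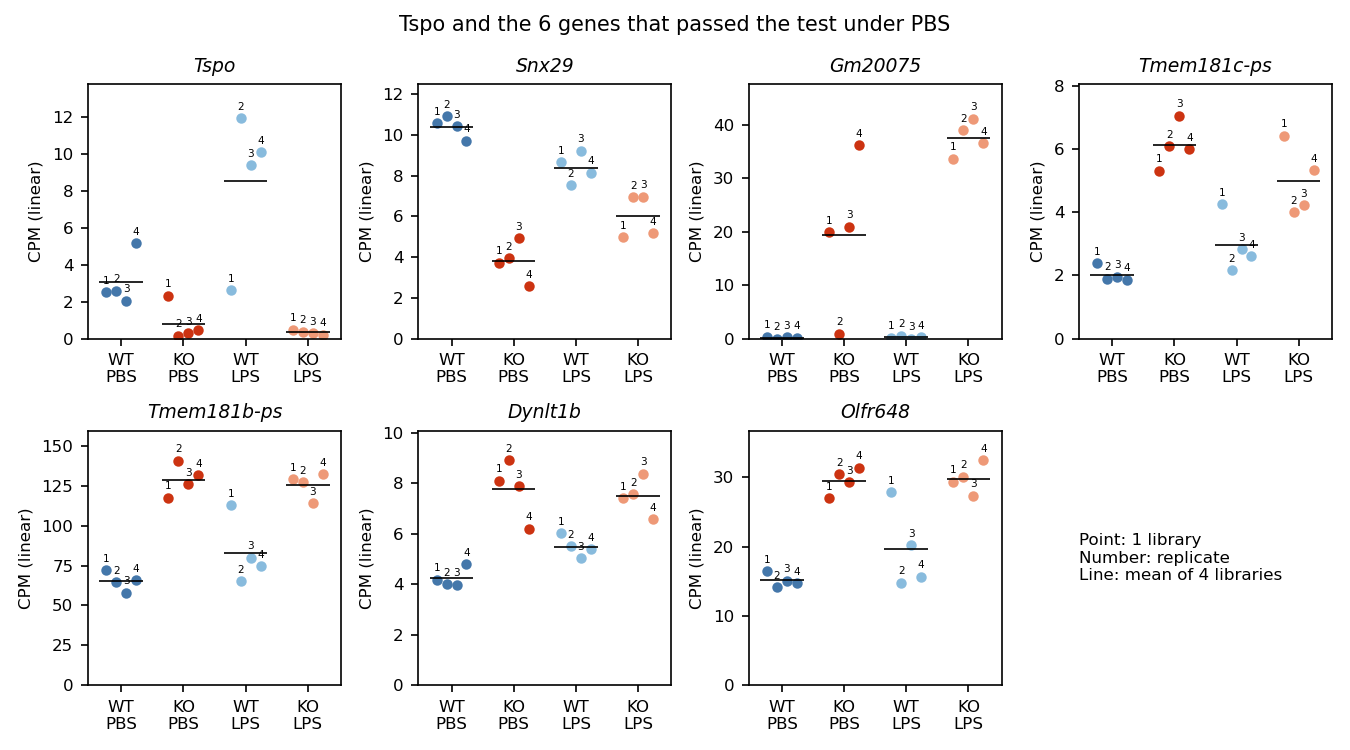
Level in CPM on a linear axis of Tspo and the 6 genes that passed, in each of the 16 libraries; a point is a library, its number the replicate, and a line the mean of 4. Tspo overlaps because the library labelled KO PBS 1 stands at 2.33 CPM, while the 6 others separate the PBS groups.

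**Figure D2:**
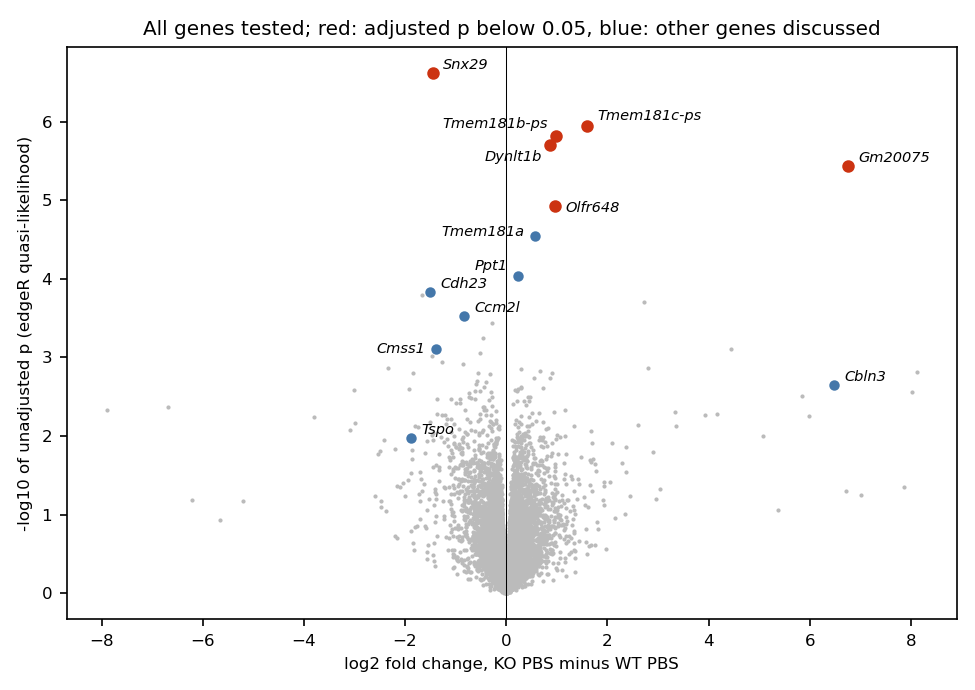
Log2 fold change (KO PBS minus WT PBS) against -log10 of the unadjusted p for the 16269 genes tested; red points passed at an adjusted p below 0.05. The 6 that passed stand above the rest, and Tspo lies among genes that did not pass.

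Snx29 encodes a sorting nexin, one of a family of proteins that bind membrane phosphoinositides and act in endosomal traffic. In wild-type PBS replicates 1 to 4 it stood at 10.6, 10.9, 10.4 and 9.72 CPM, and in knockout replicates 1 to 4 at 3.73, 3.94, 4.93 and 2.58 CPM. The gap between the groups was wider than the range within either, and the library labelled knockout replicate 1 sat with the other knockouts. The level was 2.73-fold lower in the knockout (log2 fold change -1.45 ± 0.16, SE; edgeR adjusted p = 0.0039). Snx29 lies on chromosome 16 (11322908 to 11755472, plus strand) and shares no 31-base stretch of its transcripts with another gene. Under LPS the groups also did not overlap, at 7.54 to 9.22 CPM in wild type and 4.96 to 6.96 CPM in knockout, with a difference of -0.48 ± 0.16 that did not pass (adjusted p = 0.0626). The test of a change in the genotype difference between PBS and LPS missed the threshold (adjusted p = 0.0514) and was 0.0136 with the library labelled wild-type LPS replicate 1 left out. The call was kept in 28 of 35 other settings. It was lost with those 3 libraries set aside and, among fits of only the 8 PBS libraries, with a replicate block or without wild-type replicate 1, 2 or 3 or knockout replicate 1 or 2 (adjusted p up to 0.214 over all settings).

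On chromosome 17, 3 of the 6 lie close together: Dynlt1b (6430112 to 6436296, plus strand), Tmem181b-ps (6438524 to 6467022, minus) and Tmem181c-ps (6613753 to 6639790, minus). The locus carries tandem copies of a pair of genes. Tmem181a encodes a multi-pass membrane protein, of which the b and c copies are annotated pseudogenes, and Dynlt1a, b, c and f each encode a Tctex-type light chain of cytoplasmic dynein, the motor that carries cargo toward microtubule minus ends. Parts of the copies are nearly alike, as the following stretches show, with capitals at every base that differs within a set (5′ to 3′, GENCODE M21 transcripts, GRCm38). The stretches do not stand for whole transcripts. For Dynlt1, the first coding exon holds the single base of 339 coding bases at which Dynlt1b differs from each of the other 3:
Dynlt1b (chr17:6430212-6430238, plus): atggaagacttccaggcctcAgaggag
Dynlt1a (chr17:6317374-6317400, minus): atggaagacttccaggcctcCgaggag
Dynlt1c (chr17:6601810-6601836, plus): atggaagacttccaggcctcCgaggag
Dynlt1f (chr17:6655774-6655800, minus): atggaagacttccaggcctcCgaggag
For Tmem181, only coding exons of Tmem181a that match closely in all 3 copies were considered. The one at which they differ most holds 3 in 104 bases:
Tmem181a (chr17:6280598-6280701, plus): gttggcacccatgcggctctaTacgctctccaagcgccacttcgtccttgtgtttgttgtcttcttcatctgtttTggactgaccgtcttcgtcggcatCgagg
Tmem181b-ps (chr17:6466919-6467022, minus): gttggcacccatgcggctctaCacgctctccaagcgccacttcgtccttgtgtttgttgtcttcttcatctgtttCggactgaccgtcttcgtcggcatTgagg
Tmem181c-ps (chr17:6639687-6639790, minus): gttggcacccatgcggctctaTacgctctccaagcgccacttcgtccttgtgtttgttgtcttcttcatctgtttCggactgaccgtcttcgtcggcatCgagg

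Of the 31-base words in their transcripts, 81.3% for Tmem181c-ps, 59.9% for Tmem181b-ps, 39.3% for Tmem181a and 86.9% for Dynlt1b also occur in another gene. The counts of a single copy are therefore uncertain, since reads from a shared stretch could be assigned to any copy that holds it.

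Tmem181b-ps stood at 72.1, 64.8, 58 and 66.1 CPM in wild-type PBS replicates 1 to 4 and at 118, 141, 126 and 132 CPM in knockout replicates 1 to 4. Every knockout library was above every wild-type one, 1.98-fold by the fit (log2 fold change 0.99 ± 0.13; edgeR adjusted p = 0.008). Tmem181c-ps stood at 2.38, 1.9, 1.96 and 1.86 CPM in wild type and 5.32, 6.10, 7.05 and 6.01 CPM in knockout (1.59 ± 0.20; edgeR adjusted p = 0.008). Dynlt1b stood at 4.18, 4.01, 3.98 and 4.79 CPM in wild type and 8.12, 8.92, 7.89 and 6.21 CPM in knockout (0.88 ± 0.12; edgeR adjusted p = 0.008). Neither of these groups overlapped. The intact copy Tmem181a did not pass in edgeR, although its groups did not overlap either: 140, 119, 115 and 123 CPM in wild type against 182, 201, 176 and 182 CPM in knockout (0.57 ± 0.10; edgeR adjusted p = 0.0664). It passed in 7 of 35 other settings, among them DESeq2, limma-voom with quality weights and edgeR on only the 8 PBS libraries. The other Dynlt1 copies overlapped, with log2 fold changes of 0.00 ± 0.20 for Dynlt1a, 0.33 ± 0.18 for Dynlt1c and 0.40 ± 0.19 for Dynlt1f.

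Summing the copies removes the uncertainty of assignment among them. The summed level of the 3 Tmem181 copies was 192 ± 16.6 CPM in wild type and 320 ± 19.4 CPM in knockout (SD, n = 4), with lowest and highest values of 175 and 214 against 305 and 348 CPM. The summed level of the 4 Dynlt1 copies was 23 ± 1.95 CPM in wild type and 29.1 ± 5.26 CPM in knockout (SD, n = 4), and these groups overlapped. Under LPS, 3 of the wild-type libraries had summed Tmem181 levels of 197 to 233 CPM, but wild-type LPS replicate 1 stood at 306 CPM, inside the knockout LPS range of 292 to 324 CPM. In edgeR, the calls of Tmem181b-ps and Tmem181c-ps were lost without wild-type PBS replicate 2 or 3, and that of Dynlt1b without wild-type PBS replicate 1, 2 or 3 or in the fit of only the 8 PBS libraries. A replicate block ended the call of Dynlt1b in all libraries and in the 8 PBS libraries. It ended those of Tmem181b-ps and Tmem181c-ps in the 8 PBS libraries.

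Gm20075 is a single-exon gene on chromosome 13 (96079216 to 96081376, minus strand) inside the span of Sv2c. It is a near-identical copy of Btf3l4, a gene of chromosome 4 with several exons that is related to the transcription factor BTF3: over 474 coding bases the annotated sequences do not differ at all, and 90.4% of the 31-base words of Gm20075 occur in Btf3l4. The longest coding exon of Btf3l4 shows what a read from either locus would carry, and no base is in capitals because none differs:
Btf3l4 (chr4:108819136-108819337, minus) and Gm20075 (chr13:96080960-96081161, minus): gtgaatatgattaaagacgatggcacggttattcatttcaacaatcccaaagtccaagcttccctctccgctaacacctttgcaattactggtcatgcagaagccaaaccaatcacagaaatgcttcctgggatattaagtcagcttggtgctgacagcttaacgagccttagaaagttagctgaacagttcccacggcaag

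Counts assigned to Gm20075 were near 0 in wild-type PBS replicates 1 to 4, at 0.348, 0, 0.199 and 0.16 CPM, and stood at 19.9, 0.91, 20.9 and 36.3 CPM in knockout replicates 1 to 4. Knockout replicate 2 was thus close to wild type, and the other 3 were far above it. The fitted log2 fold change was 6.75 ± 0.95 (edgeR adjusted p = 0.0118), and the call was lost without any 1 of the 4 wild-type PBS libraries and in the fit of only the 8 PBS libraries. With a replicate block the call was lost in all libraries and kept in the 8 PBS libraries. Btf3l4 was lower in the same 3 knockout libraries. It stood at 62.3, 62.7, 62.6 and 61.8 CPM in wild type and at 41.8, 70.4, 39.7 and 28.3 CPM in knockout replicates 1 to 4, a difference of -0.47 ± 0.19 that did not pass (edgeR adjusted p = 0.918). Without knockout replicate 2 it was -0.77 (edgeR adjusted p = 0.0367), but that is the library whose value opposes the difference.

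The groups overlapped in the sum of both genes, at 62.5 ± 0.401 CPM in wild type and 64.6 ± 4.81 CPM in knockout (SD, n = 4; exact two-sided permutation p = 0.629). They did not overlap in the share of the pair's counts assigned to Gm20075. It was 0% to 0.556% in wild type, where the 0 counts of replicate 2 allow a share of up to 0.144% by the limit of 3 counts and 0.177% by the exact 95% interval. In knockout PBS replicates 1 to 4 it was 32.2% (exact 95% binomial interval 30.4% to 34.1%), 1.28% (0.862% to 1.82%), 34.5% (32.5% to 36.6%) and 56.2% (53.9% to 58.4%). These intervals and limits cover counting error only. In the 4 knockout LPS libraries the share was 55.1% to 60.3%, and in wild-type LPS 0% to 0.677%. Knockout PBS replicates 1 and 3 thus lay at about the same share, replicate 4 near the knockout LPS libraries and replicate 2 near wild type.

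**Figure D3:**
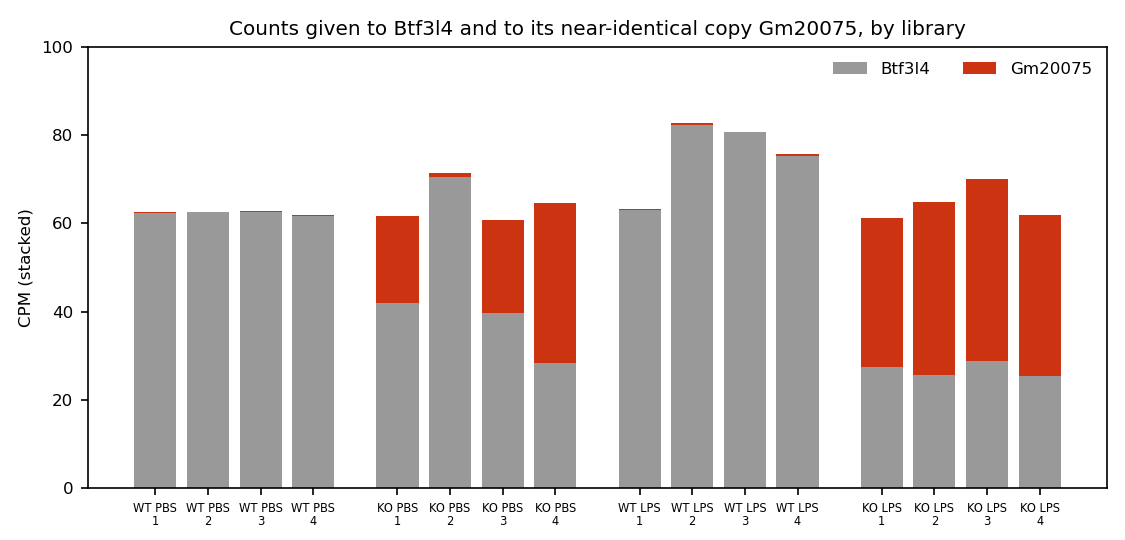
Stacked CPM of Btf3l4 (grey) and Gm20075 (red) in each of the 16 libraries. The bar heights of the PBS groups lie between 60.66 and 71.35 CPM, while the red part is 0.91 CPM in KO PBS replicate 2 and 19.9 to 36.3 CPM in the other 3.

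Other copies of expressed genes, looked at after their values were seen, showed the same library apart. Gm12663, a copy of Ublcp1, had 0 counts in all 4 wild-type PBS libraries and in knockout replicate 2, and 45, 52 and 37 counts in knockout replicates 1, 3 and 4. Gm16439, a copy of Bnip3, likewise had 0 counts in those 5 libraries and 32, 72 and 23 in the other 3. Of its 31-base words 74.9% occur in Bnip3 and 100% in AC160336.1, a gene whose span overlaps it, so its counts cannot be told apart from that gene's. Neither Gm12663 nor Gm16439 passed, and knockout LPS replicate 4 had 0 counts of both. Gm10110, a copy of Pabpc4, had 1 to 5 counts in wild-type and 14, 6, 18 and 25 in knockout PBS libraries, and did not pass in edgeR (adjusted p = 0.296).

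Olfr648 encodes an olfactory receptor and lies on chromosome 7 (104177598 to 104183392, minus strand). It stood at 16.5, 14.2, 15.1 and 14.8 CPM in wild-type PBS and 27, 30.5, 29.3 and 31.4 CPM in knockout PBS replicates 1 to 4. The groups did not overlap, and the level was 1.95-fold higher in the knockout (log2 fold change 0.97 ± 0.15; edgeR adjusted p = 0.0318). A replicate block, in all libraries or in only the 8 PBS libraries, ended the call. The call of Olfr648 was also lost without any 1 of the 8 PBS libraries in the fit of all groups, with adjusted p-values up to 0.634 over all settings. Of its 31-base words 19.5% occur in other genes. In wild-type LPS it stood at 27.9 CPM in replicate 1, among the knockout values, and at 14.8 to 20.2 CPM in the other 3.

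The LPS-injected groups give the same genotype contrast in other samples. All 6 genes had the same direction there, and 5 passed, with or without the library labelled wild-type LPS replicate 1; Snx29 did not. Of all genes, 1935 passed under LPS (11.9%) and 2331 (14.3%) had groups that did not overlap, and the genotype difference itself changed between PBS and LPS in 187 genes (1.15%). Without the library labelled wild-type LPS replicate 1, of 16504 genes 4005 passed under LPS (24.3%), 5735 did not overlap, now between 3 and 4 libraries, and the genotype difference changed in 2655 (16.1%), so these counts rest on that library. Of the 90 genes named here or near Tspo, none lost a call under LPS without that library, 9 gained one, and 10 changed sign there. Of the 534 genes whose groups did not overlap under PBS, 46.1% had the same sign of log2 fold change under LPS and 288 the opposite one. Under LPS, 40 of the 534 again had groups that did not overlap in the same direction, and 31 in the opposite one. Without that library the latter 2 counts were 82 and 113 of 544.

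Next to the 6, the rule for naming genes gave those with the smallest p whose groups did not overlap. Their separation under PBS was thus set by the rule and adds no support. None of them passed in the main edgeR fit. Among them, Ppt1, Cdh23, Cmss1 and Mid1 were called by both DESeq2 (19 calls) and limma-voom with quality weights (308 calls), and limma-voom also called several others. Cmss1 passed in edgeR with sex as a covariate as well. Among the higher genes was Ppt1, palmitoyl-protein thioesterase 1, a lysosomal enzyme whose loss causes infantile neuronal ceroid lipofuscinosis. It stood at 78.2, 78.8, 81.8 and 77.1 CPM in wild-type PBS and 90.9, 97.1, 87.2 and 95.1 CPM in knockout PBS (log2 fold change 0.23 ± 0.04; edgeR adjusted p = 0.187). Under LPS the log2 fold change was 0.27 ± 0.04 and passed (adjusted p = 0.00328). Ssr1, a subunit of the translocon-associated complex of the endoplasmic reticulum, likewise stood at 136 to 142 CPM in wild type and 147 to 155 CPM in knockout under PBS (0.14 ± 0.04), and its difference under LPS of 0.15 ± 0.04 passed (adjusted p = 0.028).

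The other higher genes did not pass under LPS. Ryr1, the skeletal muscle type ryanodine receptor that releases calcium from the endoplasmic reticulum, stood at 26.8, 27.8, 29.6 and 45.6 CPM in wild-type PBS and 57.1, 54.9, 48.6 and 53.6 CPM in knockout PBS (0.72 ± 0.20). Wild-type replicate 4 was nearer to the knockouts than to its own group. Lcat, the enzyme that esterifies cholesterol on lipoproteins, stood at 16.2 to 19.1 CPM in wild type and 20.7 to 25.2 CPM in knockout (0.35 ± 0.10). Ecsit, an assembly factor of respiratory complex I and adaptor of Toll-like receptor signalling, differed by 0.18 ± 0.05, and Riok1, a kinase of ribosome maturation, by 0.23 ± 0.06. Focad, Stac, Ddah2, U2af1l4 and Hyi completed the group, with log2 fold changes of 0.29, 0.91, 0.54, 0.29 and 0.46 and an edgeR adjusted p of 0.918 each. Of the words of U2af1l4 transcripts, 49.6% are shared with another gene.

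Among the lower genes that did not pass, Cdh23, a cadherin of hair cell tip links stood at 4.29, 5.76, 6.67 and 2 CPM in wild-type PBS and 1.80, 1.37, 1.76 and 1.64 CPM in knockout PBS (-1.50 ± 0.30; edgeR adjusted p = 0.259). Wild-type replicate 4 lay close to the knockouts, and without that contrary value the difference was -1.76 (edgeR adjusted p = 0.0107). Lef1, a thalamic marker, followed a like order over the wild-type libraries at 10.5, 23.5, 26.3 and 7.03 CPM, and stood at 4.6 to 7.28 CPM in knockout. Tcf7l2, another, stood at 17.1, 70.5, 75.6 and 11.6 CPM in wild type and 28.1, 26.7, 13.8 and 5.91 CPM in knockout, so its groups overlapped. Of 25 tested genes in the list for thalamus, striatum, cerebellum and cortex, 15 had a positive log2 fold change (median 0.44). At an unadjusted p below 0.05 in edgeR, 4 were higher and 5 lower. The part of such tissue in the Cdh23 result was not tested. Cdh23 overlapped under LPS, with a difference of -0.09.

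Cmss1, a homologue of a yeast small ribosomal subunit protein, stood at 5.63, 6.79, 6.47 and 6.98 CPM in wild-type PBS and 1.76, 2.15, 3.98 and 2.01 CPM in knockout PBS (-1.39 ± 0.33; edgeR adjusted p = 0.789). Its difference under LPS, -1.24 ± 0.33, passed (adjusted p = 0.0256). Mid1, an X-linked ubiquitin ligase of microtubules, stood at 63, 39.5, 42.6 and 26.7 CPM in wild type and 21.6, 14.3, 14.7 and 21.1 CPM in knockout under PBS (-1.26 ± 0.31; edgeR adjusted p = 0.918), and its difference of -1.36 ± 0.32 passed under LPS (adjusted p = 0.0146). Mid1 shares 31.1% of its words with other genes. Egln3, an oxygen-sensing prolyl hydroxylase, B3gat2, a glucuronyltransferase of the HNK-1 epitope, and Cage1 differed by -0.57, -0.39 and -0.60, each with an edgeR adjusted p of 0.918. Cage1 and Riok1 are neighbours on opposite strands of chromosome 13, next to Ssr1.

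Cxcl12, a chemokine that guides leukocytes and neural progenitors through CXCR4, stood at 93.8, 78.7, 83.3 and 70.5 CPM in wild-type PBS and 45.7, 52.6, 56.9 and 67.2 CPM in knockout PBS (-0.55 ± 0.14; edgeR adjusted p = 0.918). The groups were separated by a narrow margin between wild-type and knockout replicates 4. It overlapped under LPS, at 39 to 61.4 CPM in wild type and 48.5 to 59.8 CPM in knockout.

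By position, most of these 534 genes lay in windows holding fewer than 4 of them. Of 2203 windows of 1 Mb with a tested gene, 6 held at least 4 such genes and 2 held at least 5; both of the latter lie side by side on chromosome 2 (152 to 154 Mb, GRCm38). This stretch was picked for that count, so no test of the stretch itself was made. Among its 36 tested genes, 11 had groups that did not overlap (3.28% of all genes), 8 of them lower in the knockout. Mylk2, a muscle myosin light chain kinase, is among the 11, but its nearest wild-type and knockout libraries held 1 count each and were apart only by depth. Wild-type PBS libraries had 1, 0, 0 and 1 counts and knockout PBS replicates 1 to 4 had 18, 1, 17 and 19. Without it 1 of the 2 windows holds 4 such genes. Ccm2l, an endothelial relative of the cerebral cavernous malformation gene CCM2, stood at 4.21, 3.68, 3.22 and 4.13 CPM in wild type and 2.30, 2.31, 1.74 and 2.25 CPM in knockout (-0.83 ± 0.18). Tm9sf4, a membrane protein of the endosomal and Golgi system, stood at 92.1, 89.1, 87.3 and 84.5 CPM in wild type and 72.3, 76.6, 70 and 72 CPM in knockout (-0.28 ± 0.06). Dusp15, a phosphatase of oligodendrocytes, stood at 19.3 to 22 CPM in wild type and 13 to 16.5 CPM in knockout (-0.45 ± 0.10).

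None of the 36 passed in edgeR, where 12 had an unadjusted p below 0.05 (5.17% of all genes). The stretch was picked for genes with separate PBS groups, which go with a small p. Neither this count nor the PBS calls that follow can therefore support it. DESeq2 called 3 (Dusp15, Ccm2l and Tm9sf4), of 19 called among 19393 genes, and limma-voom with quality weights called 7, of 308 among 16269. Of the 11, 9 kept their sign under LPS, and Ccm2l and Tm9sf4 passed there (log2 fold change -0.86, adjusted p = 0.00825, and -0.22, adjusted p = 0.0287). On chromosome 17, between 6 and 7 Mb, 4 of 17 tested genes did not overlap (3.28% of all genes). All were higher in the knockout: the 3 that passed and Tmem181a. The Tmem181 copies among them share transcript sequence, so the 4 are not separate observations. DESeq2 called 4 of the 17 and limma-voom with quality weights called 5.

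**Figure D4:**
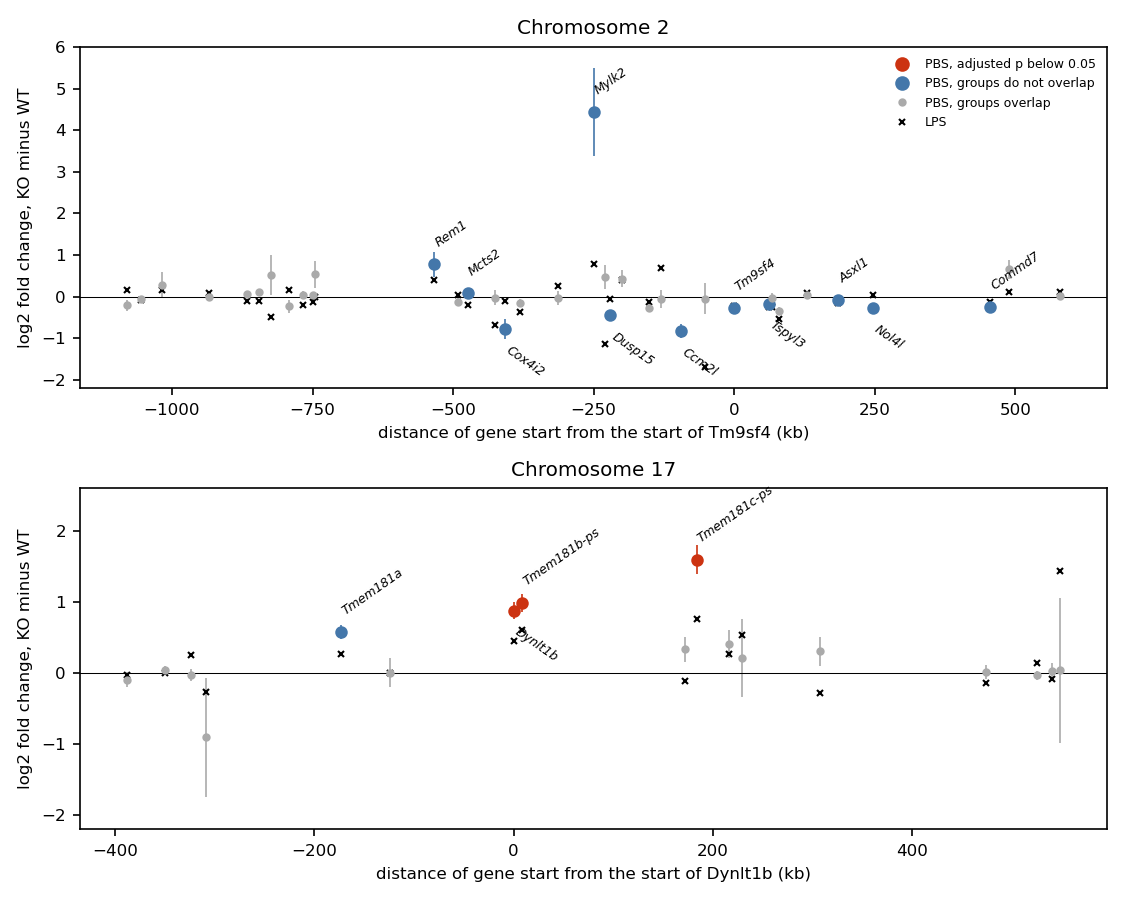
Log2 fold change (KO minus WT) of each tested gene against the distance of its start from that of Tm9sf4 (chromosome 2) or Dynlt1b (chromosome 17); bars are SE under PBS and crosses the LPS difference. In the chromosome 2 stretch 8 of the 11 genes whose groups did not overlap lie below 0, and on chromosome 17 all 4 lie above it.

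The 31 gene lists for the pathways and cell types of this tissue held no gene that passed in edgeR; DESeq2 called 1 of their genes (Lef1), and limma-voom with quality weights called at least 1 gene in 13 of the lists. The median log2 fold change of all genes was 0.01. A list is described here by how many of its genes had an unadjusted p below 0.05 or groups that did not overlap, beside 5.17% and 3.28% of all genes.

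For TSPO's partners, ligand and the enzymes of neurosteroid synthesis, 27 of 29 genes were tested, 1 had an unadjusted p below 0.05 and the median was -0.01. That gene was Acbd3, a TSPO-binding protein of the Golgi, at 36.3 to 43.7 CPM in wild type and 34.7 to 39.5 CPM in knockout (-0.14 ± 0.06, edgeR adjusted p = 0.918). Dbi, the ligand's gene, stood at 69.3, 79, 72.7 and 98 CPM in wild type and 96.3, 108, 94.9 and 87.5 CPM in knockout (0.28 ± 0.14, edgeR adjusted p = 0.918). Srd5a1, a 5-alpha-reductase of neurosteroid synthesis, differed by -0.22 ± 0.11. Of 30 cholesterol genes, 25 had a negative log2 fold change, but the median was only -0.09 and none had an unadjusted p below 0.05. Abcg1, a sterol exporter, stood at 81.1 to 82.9 CPM in wild type and 84.2 to 91.2 CPM in knockout (0.09 ± 0.05).

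Mitochondrial genes had small log2 fold changes. The 34 nuclear oxidative phosphorylation genes had log2 fold changes between -0.06 and 0.07, the 13 genes of the mitochondrial genome between -0.11 and 0.17, and none in either list had an unadjusted p below 0.05. Of 23 genes of fatty acid oxidation, 17 had a positive log2 fold change (median 0.05). Echs1, the enoyl-CoA hydratase of that pathway, stood at 43.7, 43.8, 42.6 and 45.5 CPM in wild type and 50, 49.8, 58 and 50.9 CPM in knockout (0.25 ± 0.08, edgeR adjusted p = 0.918). Among 23 genes of mitochondrial quality control, Pink1, the kinase that marks damaged mitochondria, stood at 330 to 353 CPM in wild type and 293 to 325 CPM in knockout (-0.14 ± 0.05, adjusted p = 0.918). Bnip3, a mitophagy receptor, differed by -0.24 ± 0.10. Txn1, thioredoxin, had the smallest p of the antioxidant list (-0.13 ± 0.06, edgeR adjusted p = 0.918).

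Among glial lists, 17 of 20 homeostatic microglia genes had a positive log2 fold change (median 0.11), none with an unadjusted p below 0.05. Cx3cr1, the microglial fractalkine receptor, stood at 38.4 to 49.2 CPM in wild type and 46 to 51.6 CPM in knockout (0.22 ± 0.14), and Csf1r at 65.7 to 83.2 against 76.6 to 87.3 CPM (0.16 ± 0.12). The groups overlapped in both, since wild-type replicate 4 was as high as the knockouts. Of the activated microglia genes, Nos2, the inducible nitric oxide synthase (-1.03 ± 0.36), and Cd74, the invariant chain of antigen presentation (-0.78 ± 0.27), had the smallest p (edgeR adjusted p = 0.918 for both), both below 5 CPM in every PBS library. Astrocyte identity, reactive astrocyte and complement lists had no gene with an unadjusted p below 0.05, and medians of 0.01, -0.06 and -0.0048. Of 20 oligodendrocyte genes 19 had a negative log2 fold change, with a median of -0.10 and no unadjusted p below 0.05. Lhfpl3, of oligodendrocyte precursors, differed by -0.44 ± 0.17 (edgeR adjusted p = 0.918).

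In 2 of the 31 lists every knockout library scored below every wild-type library, and in the others the scores overlapped. By exact permutation, 4 against 4 libraries lie fully apart in either direction with a chance of 0.0286 for any 1 list. Among 31 lists, some of which share genes, some could therefore do so without a genotype difference, and the scores were not tested. A score is a library's mean log2 CPM over a list, set against the average of the 4 wild-type PBS libraries. The endothelial and blood-brain barrier list scored -0.09 to 0.18 in wild type and -0.35 to -0.15 in knockout, and 17 of its 18 genes had a negative log2 fold change (median -0.22), 7 with an unadjusted p below 0.05 and 4 with groups that did not overlap. Abcb1a, the drug exporter P-glycoprotein, stood at 44.7, 34.5, 32.8 and 32.1 CPM in wild type and 24.2, 28, 25.1 and 29.1 CPM in knockout (-0.44 ± 0.12, edgeR adjusted p = 0.918). Other genes hold 28.2% of its 31-base words. Flt1, a receptor of VEGF, differed by -0.46 ± 0.18, Tjp1, a tight junction scaffold, by -0.17 ± 0.07, and Adgrf5, an adhesion receptor of endothelium outside the list, by -0.53 ± 0.13. Under LPS the differences of Abcb1a, Flt1 and Tjp1 were 0.07, 0.34 and 0.24, of which that of Tjp1 passed (adjusted p = 0.0288), higher in the knockout. The edgeR test of a change between PBS and LPS passed for none of these genes (adjusted p = 0.111, 0.0963 and 0.05). With the library labelled wild-type LPS replicate 1 left out it passed for each (0.031, 0.0122 and 0.00484).

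Red blood cell genes were spread widely, none passed and none had separate groups. Their score was 1.09, 0.32, 0.25 and -1.66 in wild-type and -0.65, -2.55, -0.98 and -2.69 in knockout PBS replicates 1 to 4, their summed level 355 to 1087 CPM against 275 to 473 CPM, and 4 of 8 had an unadjusted p below 0.05. Hba-a1, a haemoglobin gene, stood at 190, 89, 83.9 and 14 CPM in wild type and 46.3, 4, 31.3 and 2.52 CPM in knockout. No member of that list was at 0 in any library, and its part in the endothelial difference was not tested. In bulk tissue, fewer cells of a type and less RNA per cell cannot be told apart. Of 18 pericyte, smooth muscle and fibroblast genes, 16 had a negative log2 fold change (median -0.24); Abcc9, a pericyte potassium channel subunit, stood at 10.9 to 12 CPM in wild type and 8.62 to 9.82 CPM in knockout (-0.29 ± 0.09). Kcnj8 and Rgs5, also of pericytes, differed by -0.33 ± 0.14 and -0.23 ± 0.10.

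The interferon-stimulated list scored -0.05 to 0.04 in wild type and -0.27 to -0.18 in knockout, while its summed level overlapped, at 175 to 187 CPM in wild type and 162 to 177 CPM in knockout. Of its 31 tested genes 25 had a negative log2 fold change (median -0.20), 4 had groups that did not overlap and none an unadjusted p below 0.05. Rsad2, the antiviral protein viperin, stood at 2.35, 1.36, 2.39 and 1.36 CPM in wild type and 0.997, 1.21, 0.952 and 1.01 CPM in knockout (-0.84 ± 0.44, edgeR adjusted p = 0.918). Ifit1 (-0.69 ± 0.37) and the chemokine Cxcl10 (-1.41 ± 0.86) had differences of -2.45 and -4.09 under LPS that passed there (adjusted p = 0.00308 and 0.00578). The edgeR test of a change between PBS and LPS missed the threshold for Ifit1 and Cxcl10 (adjusted p = 0.0794 and 0.208). It was 0.000208 and 0.000529 with the library labelled wild-type LPS replicate 1 left out. Il33, an alarmin of astrocytes and oligodendrocytes, differed by -0.32 ± 0.14 under PBS and by 0.83 under LPS, where it passed (adjusted p = 0.00445), and the change between treatments also passed (adjusted p = 0.0432). Cxcr4, the receptor of Cxcl12, differed by 0.55 ± 0.26 under PBS.

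Of the immediate early genes, which neurons and vessels switch on within minutes of stimulation, 18 of 21 had a negative log2 fold change (median -0.23), 4 with an unadjusted p below 0.05 and 3 with groups that did not overlap. Egr2 stood at 6.56, 7.30, 7.11 and 4.79 CPM in wild type and 2.87, 1.58, 3.36 and 3.69 CPM in knockout (-1.16 ± 0.36, edgeR adjusted p = 0.918). Fosb stood at 13 to 21.9 CPM in wild type and 10.4 to 12.7 CPM in knockout (-0.58 ± 0.23). Nr4a2 was at 138 CPM in wild-type replicate 1, 61.2 to 63.2 CPM in the other wild-type libraries and 50.2 to 58.7 CPM in knockout (-0.60 ± 0.24). The scores of the list overlapped, because knockout replicate 4 lay within the wild-type range.

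Neuronal lists held few genes with a small p. Pou3f1, a transcription factor of CA1 pyramidal neurons, stood at 42.7, 40.4, 37.8 and 57.5 CPM in wild type and 65.2, 49.5, 61.9 and 62.8 CPM in knockout (0.42 ± 0.12, edgeR adjusted p = 0.918). The list of CA1, CA3 and dentate gyrus genes had a median of 0.26 with 15 of 20 positive, and wild-type replicate 4 scored above 3 of the 4 knockouts. Of the receptors, Gabbr2 and Grin2d had differences of -0.23 ± 0.09 and -0.50 ± 0.21, and Grin2a of 0.25 ± 0.11. Eomes and Neurod1, of the neurogenesis list, stood at 2.88 and 92.2 CPM in knockout replicate 2 and at no more than 0.546 and 24.3 CPM in the other PBS libraries. This is the library that held cerebellar transcripts. Zbtb16, a glucocorticoid target, differed by 0.32 ± 0.14 and the clock gene Rorb, which is also a thalamic marker, by -0.77 ± 0.26. Interneuron genes had a median of 0.15 and none with an unadjusted p below 0.05.

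All 15 choroid plexus and all 14 ependymal genes had positive log2 fold changes (medians 0.51 and 0.48), none passing. Wild-type replicate 1, which nearly lacked both, scored -3.33 and -2.04, and wild-type replicate 4 scored 2.32 and 1.57, above every knockout. Of the blood leukocyte list, 7 of 15 genes were tested, with a summed level of 1.39 to 2.21 CPM in wild type and 1.09 to 2.05 CPM in knockout.

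**Figure D5:**
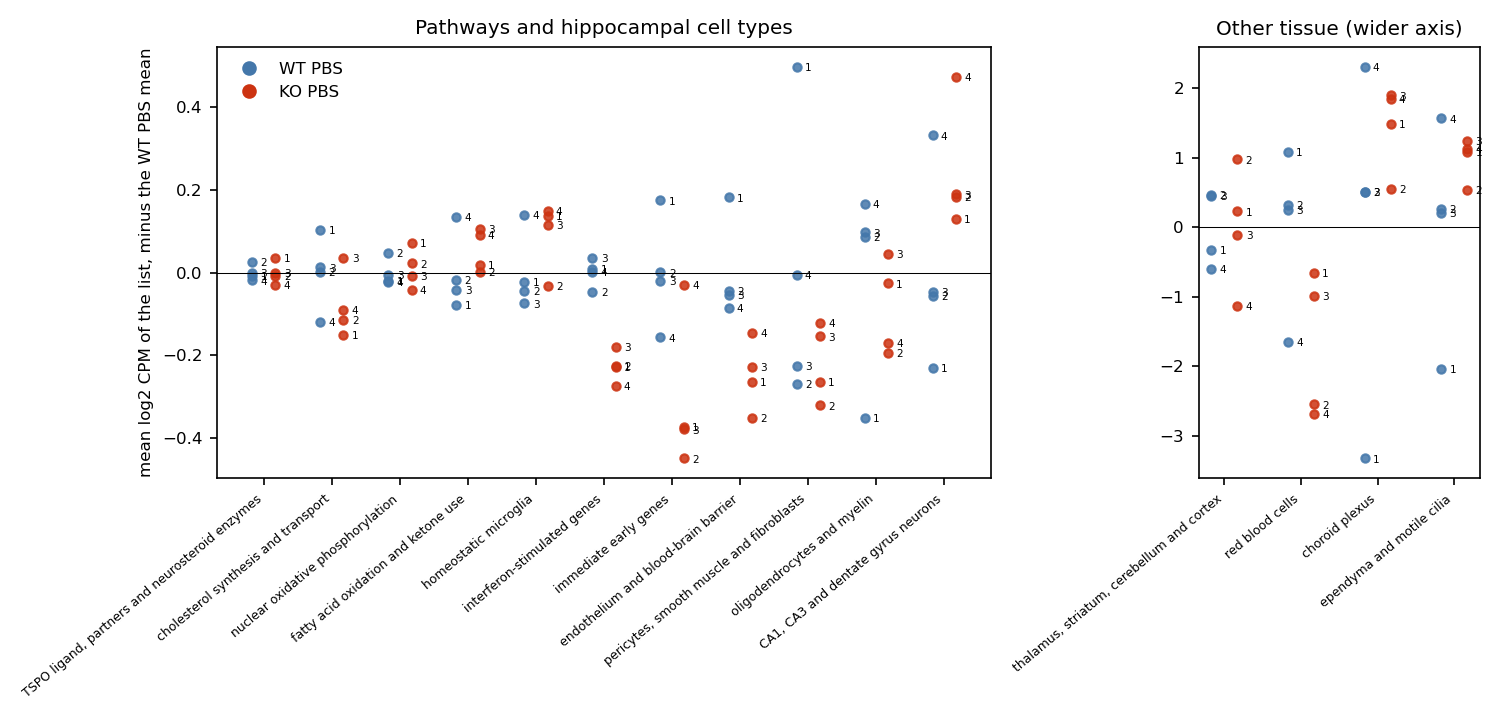
Score of 15 gene lists (mean log2 CPM minus the WT PBS mean) in each PBS library; a point is a library and its number the replicate. The interferon and endothelial lists separate the groups, at most -0.15 in KO against at least -0.09 in WT, while red cell and choroid plexus lists spread over several log2 units within WT.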

How the data were processed

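The authors deposited a table of whole-number counts per gene and library; per the submitters' processing notes the tools used were MultiQC 1.13, Salmon 1.9.0, DESeq2 and DESeq, with no role given. The genome build and annotation are not given in the sources used here. Symbols and positions came from GENCODE M21; 105 of 19449 identifiers were absent from it. filterByExpr of edgeR 4.0.16 kept 16269 genes. Libraries were scaled by TMM, a quasi-likelihood model with a mean per group was fitted over all 16 libraries, and p-values were adjusted over all genes by Benjamini-Hochberg (threshold 0.05). The SE was obtained from the fold change and the square root of its F value. The fit was tested on simulated data of this comparison (16140 genes). In these, 67, 67 and 66 genes with a mean of at least 1 CPM were changed 1.5-fold, 2-fold and 4-fold, and no library was made to stand apart. The fit recovered 55.2%, 86.6% and 93.9% of them, and called 8 unchanged genes. Since far more genes passed there than the 6 here, the adjusted threshold was easier to reach, and these shares may be too high for the real data. The genes named were Tspo, Snx29, Gm20075, those that passed, up to 12 others per direction with the smallest p among those with separate groups and a mean log2 CPM no lower than 1, genes within 500 kb of Tspo and up to 3 per list. The comparison, the named genes and the lists were chosen with earlier results of these data known. Alternatives were RLE scaling, DESeq2, limma-voom, other filters, only the 8 PBS libraries, a replicate block, sex as a covariate and leaving out each library.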

Additional observations from a re-analysis of the deposited data

Results flagged for a closer look

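Of 178 pairs of a named gene and a PBS group of 4 libraries, 16 held 1 library far from the other 3 by Dixon's ratio (above 0.829). The genes were partly picked from these same values and share the same libraries. No chance rate can therefore be set beside that count. Knockout PBS replicate 2 was that library for Neurod1 (92.2 CPM), Eomes (2.88 CPM), Ddah2 (11.6 CPM), Dynlt1f (6.28 CPM), Adgrf5 (31.9 CPM) and Efcab6 (4.37 CPM against 6.81 to 7.11 CPM). The library labelled knockout PBS replicate 1 was apart for Tspo (2.33 CPM), U2af1l4 (25.4 CPM) and Ttll1 (29 CPM), and knockout replicate 3 for Echs1 (58 CPM) and Ccm2l (1.74 CPM). Wild-type replicate 1 stood apart for Nr4a2 (138 CPM) and Zbtb16 (75.4 CPM), and wild-type replicate 4 for Ryr1 (45.6 CPM), Ifit1 (1.41 CPM) and Pabpc4 (46.7 CPM).

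For 4 named genes the genotype difference itself changed between PBS and LPS (edgeR interaction, adjusted over all genes). All 4 also passed without the library labelled wild-type LPS replicate 1, and 30 more of the 90 named genes then did. The log2 fold change was higher under LPS than under PBS by 2.77 for Lef1, 1.15 for Il33, 0.73 for Rgs5 and 0.72 for B3gat2, and in each it was negative under PBS and positive under LPS. Lef1 is a thalamic marker and stood highest in wild-type PBS replicates 2 and 3 (23.5 and 26.3 CPM). The part of such tissue in its change was not tested.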

How the results depend on the processing

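The 6 calls became 19 with DESeq2 and 308 with limma-voom and quality weights, of which 137 were higher and 171 lower, and which kept 5 of the 6 (not Gm20075). RLE scaling and both other filters gave 6, sex as a covariate 7, and the 8 PBS libraries alone 7, of which 4 were among the 6 (Dynlt1b and Gm20075 were lost, and Tmem181a, Dkkl1 and Ndn gained). Leaving out 1 library at a time gave 1 to 9 calls in the fit of all groups (1 without wild-type PBS replicate 2 or 3, 3 without replicate 1) and 2 to 101 in the 8 PBS libraries (2 without wild-type replicate 2, 3 without knockout replicate 1, 101 without wild-type replicate 4). After seeing the data, summing wild-type replicates 2 and 3 left 1 call (Snx29), and setting aside 3 libraries left 1 (Gm20075). The causes were not tested. The log2 fold change of Tspo ran from -3.37 to -1.52 with 1 library left out and passed in none of the 35 settings.

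With a replicate block, 3 genes passed in all libraries (Snx29, Tmem181b-ps and Tmem181c-ps) and 1 in the 8 PBS libraries (Gm20075), and the Tspo difference was -2.06 and -2.42. Same-numbered libraries of the PBS groups correlated at -0.003, 0.134, 0.138 and 0.298 over 13312 genes, so the numbers were not taken to pair them; 3 of the 4 knockout libraries correlated best with their own number, a hint from the data and not from the design.

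Of 2702 values of named genes under the other settings, 65 lost the call, 60 gained one and 17 reversed in sign, all of Dynlt1a and Pabpc4, neither of which was called. The log2 fold change of Dynlt1a (0.0019 in the report's setting) was -0.0004742 in DESeq2, -0.01568 in limma-voom, -0.01177 with a replicate block in the 8 PBS libraries, -0.08082 with sex, -0.01153 with wild-type replicates 2 and 3 summed and -0.08509 with 3 libraries set aside. Leaving out 1 library gave -0.1414 to 0.09946, and in the 8 PBS libraries -0.1393, -0.05548 and -0.03597 without knockout replicate 2, wild-type replicate 4 and wild-type replicate 2. The log2 fold change of Pabpc4 (-0.0135) was 0.01477 in limma-voom and -0.05777 to 0.05075 with 1 library left out, and in the 8 PBS libraries 0.04665 without wild-type replicate 4 and 0.02809 without knockout replicate 3. Simulated 1.5-fold changes were recovered in 55.2% of genes, a share that may be too high for the real data. Changes of that size or less could therefore often be missed.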
